A study of Mus musculus with 2 samples.

Results

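The hedgehog and parathyroid hormone-related protein (PTHrP) loop of the growth plate was examined in rib chondrocytes as 9 genes: Ihh, Pthlh, Pth1r, Ptch1, Smo, Gli1, Gli2, Gli3 and Hhip. Its members were taken as the probe sets whose platform annotation names 1 gene symbol, that symbol being 1 of the 9. This gave 18 probe sets for 8 genes, out of 34945 probe sets for 18193 genes, and no value for Pthlh, to which the annotation used here ties no probe set. There were 2 samples, each measured on 1 Affymetrix whole-genome mouse array. The first was from wild-type mice and the second from mice with the V156D mutation knocked into Matn1, the gene of the cartilage matrix protein matrilin-1, both at 5 days of age. Both were chondrocytes released from dissected ribs with collagenase, and no other allele or agent is given in the labels. The design text gives pooled RNA from 5 littermates, without stating whether that number holds for each genotype, so each array stands for 1 pool and carries no information on how animals varied. Zygosity, strain and sex are not stated in the sources used here.

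In growth cartilage, Indian hedgehog is secreted by chondrocytes that are leaving the proliferating zone. It binds the receptor Patched1, which otherwise holds Smoothened inactive at the primary cilium, and active Smoothened lets the Gli factors turn on target genes, among them Gli1, Ptch1 and Hhip. Indian hedgehog also induces PTHrP in cells near the joint surface, and PTHrP acts through its receptor Pth1r and cyclic AMP to delay hypertrophy, which closes the loop.

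Values are linear intensities as deposited, 1 for each probe set, and a log2 ratio is the mutant over the wild-type intensity, so a positive ratio is a higher signal on the mutant array. Because each genotype has 1 array, no replicate error, test or standard error can be given, and whether a difference between the arrays would recur between animals of these genotypes is unknown. Probe sets of 1 gene were compared as a measure of probe error within these arrays. A signal floor was set at an intensity of 54.6, which is the median over all probe sets of their mean log2 signal on both arrays, and signals under it are given as weak ones. In the bulk RNA used here, fewer cells of a type and less RNA per cell cannot be told apart.

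The promoter sequences of 3 members, Ptch1, Gli3 and Hhip, are shown because these were the members with several probe sets whose deposited values were higher on the mutant array for each probe set, although 1 probe set of Ptch1 turned to -0.01 under 3 other scalings. Each is the 250 bases before a RefSeq transcription start of build GRCm38.p6, read 5′ to 3′ on the gene's strand. The capitals mark matches to 3 motifs searched on both strands of windows reaching 250 bases before to 50 after each start, namely GACCACCCA for the Gli factors, TGACGTCA for the cyclic AMP response element of the CREB family, and TGTGGT for the RUNX family.
Ptch1, chr13:63565736-63565985, minus strand: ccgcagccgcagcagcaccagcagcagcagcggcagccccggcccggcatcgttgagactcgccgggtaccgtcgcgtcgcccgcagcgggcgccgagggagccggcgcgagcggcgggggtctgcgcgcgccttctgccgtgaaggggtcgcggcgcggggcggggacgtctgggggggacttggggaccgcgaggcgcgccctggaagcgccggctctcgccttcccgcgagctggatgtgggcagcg
Gli3, chr13:15463473-15463722, plus strand: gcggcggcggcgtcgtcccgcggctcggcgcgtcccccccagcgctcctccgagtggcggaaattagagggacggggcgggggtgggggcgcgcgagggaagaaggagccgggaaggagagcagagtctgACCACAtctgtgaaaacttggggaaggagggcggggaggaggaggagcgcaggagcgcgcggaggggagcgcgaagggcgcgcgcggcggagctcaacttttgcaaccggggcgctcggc
Hhip, chr8:80058009-80058258, minus strand: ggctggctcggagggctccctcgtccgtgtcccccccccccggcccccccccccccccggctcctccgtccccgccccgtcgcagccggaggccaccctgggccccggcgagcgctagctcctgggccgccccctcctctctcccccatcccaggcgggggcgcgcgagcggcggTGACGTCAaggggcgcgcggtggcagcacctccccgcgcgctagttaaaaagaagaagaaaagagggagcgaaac
The window of Hhip held TGACGTCA at position -75 from the start, a sequence found in 1.79% of the 32851 mouse windows. The window of Gli3 held ACCACA, the reverse complement of TGTGGT, at position -120, against 16.8% of all windows. The Gli motif was in none of the 10 windows of the 8 members that have one, among them 1 window of Ptch1, and in 0.253% of all windows. Gli1 is named without a window. A match is a run of letters and not a shown binding site, and a motif missing from a short window says nothing of sites elsewhere.

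Most hedgehog probe sets had somewhat higher signals on the mutant array, while the ligand gene Ihh was lower there and the receptor gene Pth1r nearly equal. Of the 18 probe sets, 14 had log2 ratios above 0 and 4 below 0, with 7 of the 10 at or above the floor and 7 of the 8 under it above 0, 4 of the latter from Hhip. Over all probe sets of 1 gene, 45.3% of those at or above the floor and 53.3% of those under it were above 0. Taking the brightest probe set of each gene, 6 of the 8 genes lay at or above the floor, and 5 of these 6 had ratios above 0, against 44.8% of the 11329 genes at or above the floor. Among the 5, Smo and Gli2 each had another probe set at or above the floor with a ratio below 0, at -0.04 and -0.05. The median log2 ratio of the 6 was 0.21, beside -0.02 over those 11329 genes. The differences were small. None of the 6 differed 1.5-fold, a size reached by 3.72% of genes at or above the floor, and none differed 2-fold, against 0.909%.

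**Figure D1:**
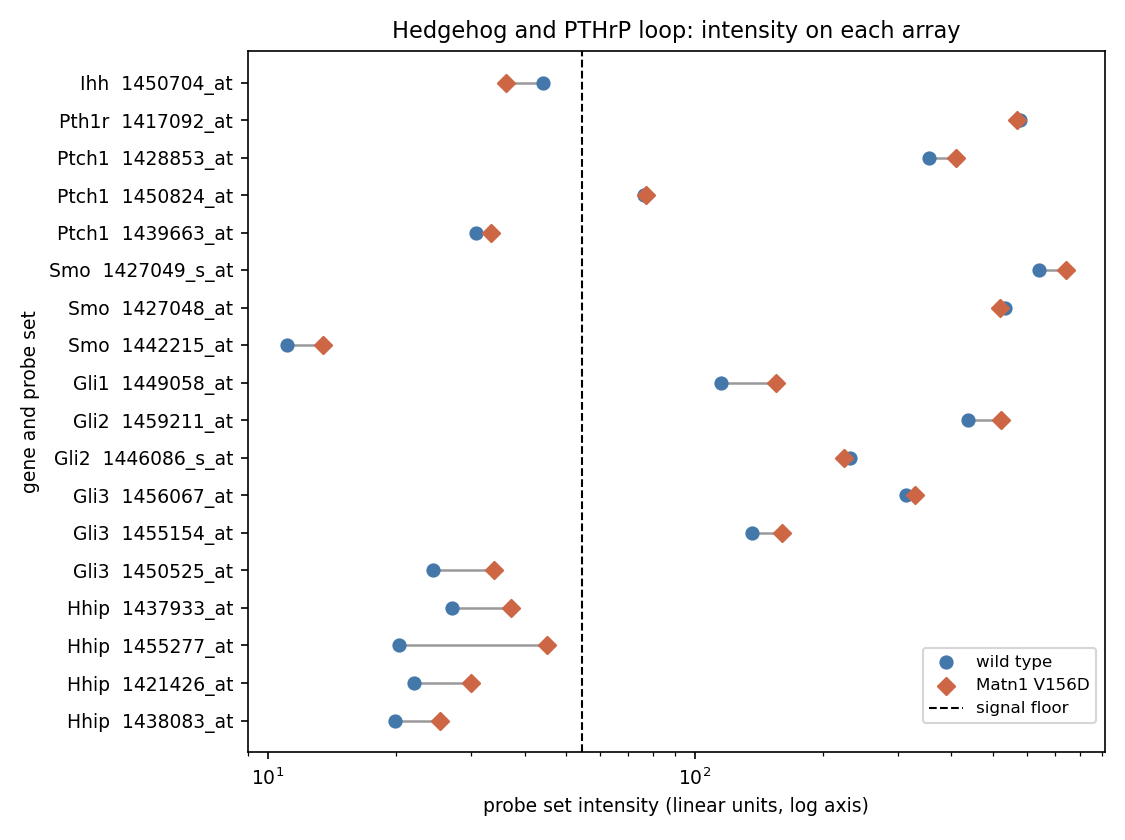
Intensity of the 18 probe sets of the loop on the wild-type array (circles) and the Matn1 V156D array (diamonds), 1 row per probe set, on a log axis, with the signal floor of 54.6 as a dashed line. The 4 Hhip probe sets and the Ihh probe set lie to the left of the floor on both arrays, and the Hhip diamonds lie to the right of their circles. Positions of different probe sets on the axis do not compare the abundance of genes.

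The hedgehog ligand of the loop gave a weak signal, a little lower on the mutant array. Ihh, which encodes Indian hedgehog, had an intensity of 44.1 on the wild-type array and 36.2 on the mutant array. The log2 ratio was -0.29, or 1.22-fold lower, and both values lay under the floor. With 1 probe set tied to Ihh, no second measurement of it was used here. The ratio shrank to -0.16 when an offset of 32 was added before the log. Pthlh, which encodes PTHrP, was not analysed here.

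The PTHrP receptor gene had nearly equal signals. Pth1r, which encodes the G protein-coupled receptor for PTHrP and parathyroid hormone, had an intensity of 579 on the wild-type array and 568 on the mutant array. These values were 10.6 and 10.4 times the floor. The log2 ratio was -0.03, and it changed sign to 0.04 after quantile normalization and 0.03 after loess correction, which removes the trend of the ratio with signal strength.

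Ptch1, the hedgehog receptor and at the same time a target of the pathway, was a little higher on the mutant array by its brightest probe set. That probe set, 1428853_at, had 355 on the wild-type array and 411 on the mutant array, a log2 ratio of 0.21. The probe set 1450824_at, also above the floor, had 76.3 and 77.0, a log2 ratio of 0.01 that turned to -0.01 when the arrays were centred on their medians, quantile normalized or loess corrected. The third, 1439663_at, lay under the floor at 30.8 and 33.4. The 3 averaged 0.11 ± 0.10 (SD over probe sets, not over samples), so the brightest gave the upper end of the range.

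Smo, which encodes the membrane protein that carries the signal past Patched1, was split between its bright probe sets. The probe set 1427049_s_at had 641 on the wild-type array and 741 on the mutant array, a log2 ratio of 0.21. The probe set 1427048_at, annotated to the same transcript record, had 533 and 519, a ratio of -0.04, or 0.03 after quantile normalization. A name ending in _s_at marks a probe set that may match several transcripts, and without such probe sets the value for Smo was -0.04. The dimmest, 1442215_at, had 11.1 and 13.5, far under the floor. The direction for Smo was therefore not settled by these probe sets.

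The Gli genes encode the zinc finger transcription factors at the end of the pathway, and the member made as a target, Gli1, had the highest ratio of the loop at or above the floor. Gli1 had an intensity of 115 on the wild-type array and 155 on the mutant array. The log2 ratio was 0.43, or 1.35-fold higher, and 3.30% of genes at or above the floor had a higher one. It lay inside the central 95% of ratios of those genes, which ran from -0.55 to 0.49. Gli1 has 1 probe set tied to it alone, so this value has no second probe set beside it. It was 0.35 with the offset of 32 and between 0.41 and 0.43 under the other processing tried.

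Gli2, the main activator of the pathway, gave different answers from its probe sets. The brighter one, 1459211_at, had 437 on the wild-type array and 523 on the mutant array, a log2 ratio of 0.26. The other, 1446086_s_at, is annotated to the same transcript record and had 231 and 224, a ratio of -0.05. The difference between them was 0.31, beside an SD of 0.26 for the difference between the brightest pair of probe sets over genes at or above the floor. The sign of Gli2 thus depended on the probe set.

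Gli3, which serves mainly as the repressor of the pathway, was above 0 by each of its probe sets. The brightest, 1456067_at, had 313 on the wild-type array and 329 on the mutant array, a log2 ratio of 0.07. The next, 1455154_at, had 136 and 161, a ratio of 0.24. The dimmest, 1450525_at, lay under the floor at 24.3 and 33.9 and had the highest ratio, 0.48. Averaged over the 3 probe sets the ratio was 0.26 ± 0.20 (SD over probe sets). The size for Gli3 therefore differed more between probe sets than the brightest of them differed between the arrays.

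Hhip, a membrane glycoprotein that binds hedgehog ligands and is itself induced by the pathway, had its 4 probe sets under the floor on both arrays, with higher signals on the mutant array. Its brightest probe set, 1437933_at, had 27.0 on the wild-type array and 37.1 on the mutant array. The probe set 1455277_at had 20.3 and 45.2, 1421426_at had 22.1 and 29.9, and 1438083_at had 19.8 and 25.3. On each of the 4 the mutant array was higher, and the highest mutant value remained below the floor of 54.6. The log2 ratios were 0.46, 1.15, 0.44 and 0.35 in that order, with a mean of 0.60 ± 0.37 (SD over probe sets), or 1.52-fold. Of 15500 probe sets of 1 gene under the floor, 1.43% had a mutant signal higher by 1.5-fold or more and 0.284% by 2-fold or more, and 1455277_at was the 1 member probe set of either kind. With the offset of 32, which cannot change a sign, the Hhip ratios ran from 0.14 to 0.56. Under the other scalings tried the lowest was 0.33, close to its deposited 0.35, so these scalings put their signs to little test.

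**Figure D2:**
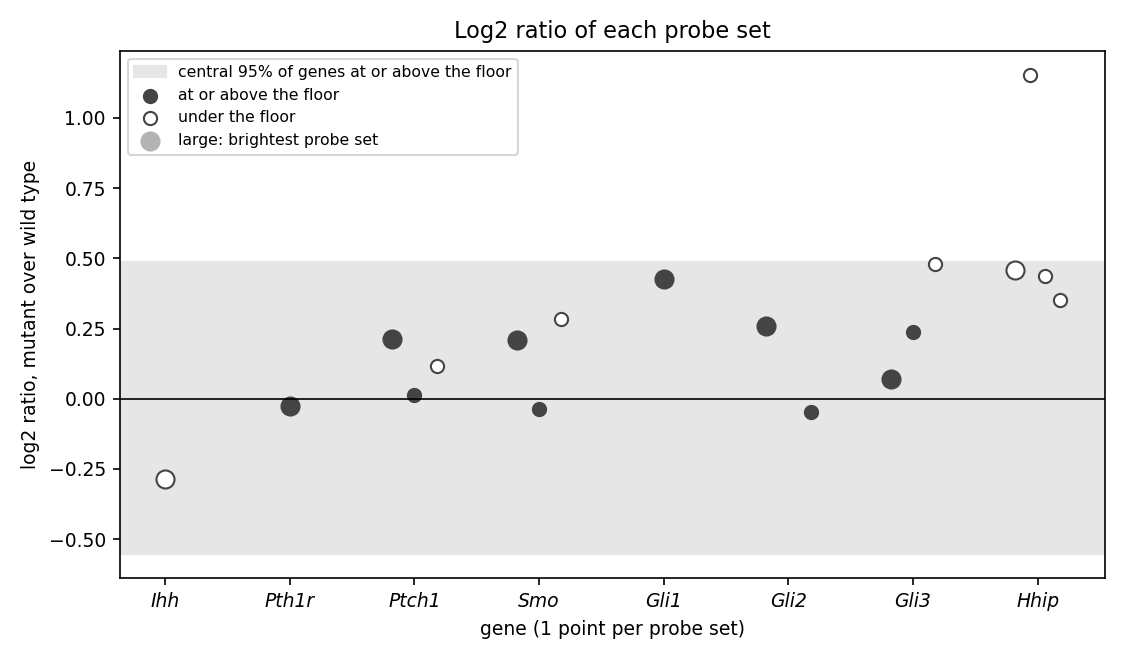
Log2 ratio of mutant over wild type for each probe set, grouped by gene, with filled points at or above the signal floor, open points under it and larger points for the brightest probe set of a gene. The grey band is the central 95% of genes at or above the floor, from -0.55 to 0.49. The Hhip probe set at 1.15 is the 1 point outside the band, and the filled points of Smo and Gli2 lie on both sides of 0.

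Agreement between probe sets set the limit for single members. Of the 4 members with several probe sets reaching the floor, Ptch1 and Gli3 had ratios of 1 sign and Smo and Gli2 did not. Over the 4878 genes with 2 or more such probe sets, 52.5% had ratios of 1 sign. The number of member probe sets above 0 was 13 of 18 after median centring, 15 after quantile normalization and 15 after the loess correction. In that order, 41%, 50.6% and 50.2% of all probe sets of 1 gene at or above the floor were above 0, against 45.3% as deposited. Under the floor the shares were 49.6%, 48.7% and 49.2%, against 53.3% as deposited. With the offset the count was 14, but an offset cannot change a sign. Over these scalings and the offset, the median of the members at or above the floor stayed between 0.19 and 0.27. It was 0.13 with probe sets averaged within genes and 0.14 with _s_at, _x_at and _a_at probe sets left out.

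**Figure D3:**
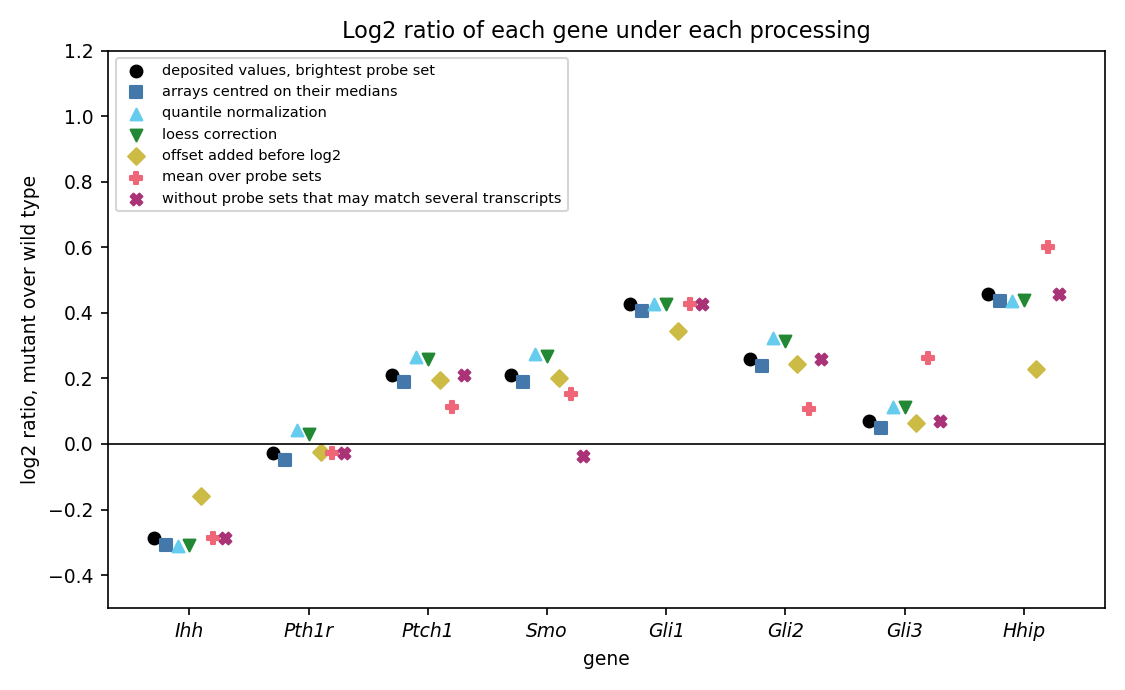
Log2 ratio of mutant over wild type for the 8 measured genes, with 1 symbol for each way of processing the values. Gli1, Gli2, Gli3, Ptch1 and Hhip lie above 0 and Ihh below 0 throughout, whereas Pth1r lies on both sides of 0 and Smo turns to -0.04 with such multi-transcript probe sets left out.

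The rest of the pathway was followed in 8 lists of genes, with 112 genes in all and 104 measured. At or above the floor lay 89 genes, of which 48 had ratios above 0 and 41 below, with a median of 0.02 beside the -0.02 over all genes. Over all genes at or above the floor 44.8% were above 0, which is also the share to set beside the counts of each list below. Of these 89, 1 was higher by 1.5-fold or more and 1 lower by that much, against 1.70% and 2.02% of genes at or above the floor. Some genes stand on more than 1 list.

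Among 7 measured genes for hedgehog ligands and their release at or above the floor, 4 were above and 3 below 0, with a median of 0.12. The SCUBE proteins help release the lipid-bearing ligand, and their genes gave different ratios. Scube2 had 335 on the wild-type array and 497 on the mutant array, a log2 ratio of 0.57, and Scube3 had 997 and 729, a ratio of -0.45. Scube1 lay between them at 0.15. Each has 1 probe set. The other hedgehog ligand genes, Shh and Dhh, lay under the floor on both arrays, at 23.2 and 23.9 and at 48.4 and 45.8.

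Co-receptors were close to 0 with 1 exception. Of 4 other receptors and binding proteins at or above the floor, 3 were above 0, and the median of 0.04 was -0.02 when probe sets were averaged. Gas1, a membrane-anchored co-receptor for hedgehog ligands, had 1596 on the wild-type array and 2480 on the mutant array and was the pathway gene at least 1.5-fold higher, at 1.55-fold. The mean over its 3 probe sets was 0.40 ± 0.46 (SD). They ran from -0.13 to 0.69, so neither the size nor the direction was shared by them. Gpc3, a glypican that binds hedgehog ligands, was lowest at -0.06.

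Signal transduction and cilium genes stayed near 0. Of 14 hedgehog transduction genes at or above the floor, 8 were above and 6 below 0, with a median of 0.02 that was -0.00 after median centring. Prkaca, a catalytic subunit of protein kinase A, which phosphorylates the Gli factors for processing, was highest at 0.36. The casein kinase gene Csnk1a1 was lowest at -0.14, but the mean over its 5 probe sets was 0.10 ± 0.17 (SD over probe sets). Of 14 primary cilium genes, 8 were above and 6 below 0, and the median of 0.05 was -0.02 with probe sets averaged. The transport gene Ift88 was highest at 0.26 and Ofd1, a gene of the ciliary base, lowest at -0.19. None of the genes on these 2 lists differed 1.5-fold.

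By their brightest probe sets, targets of hedgehog signalling outside the 9 genes did not share a direction. Of 9 at or above the floor, 5 were above and 4 below 0, with a median of 0.11 and none 1.5-fold apart. Bcl2, a survival gene, was highest at 0.22, and Foxf1, a forkhead factor gene, lowest at -0.38. The other probe set of Foxf1 was at -0.004, and the 2 averaged -0.19 ± 0.26 (SD over probe sets). Mycn and Cdk6, at -0.16 and -0.02 by their brightest probe sets, averaged 0.05 ± 0.19 and 0.09 ± 0.15 over 3 probe sets each (SD). Of the targets above 0 by the brightest probe set, none averaged below 0. The median was 0.08 with probe sets averaged. The values of Gli1, Ptch1 and Hhip thus stood beside other targets whose signs depended in part on the probe set.

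Downstream of Pth1r, 24 genes of PTHrP receptor signalling reached the floor, 14 with ratios above 0 and 10 with ratios below it, with a median of 0.07. None differed 1.5-fold. Zfp521, which encodes a zinc finger protein known as a PTHrP effector in growth cartilage, was highest at 0.49, with 471 on the wild-type array and 661 on the mutant array, with a mean of 0.40 ± 0.13 over its 2 probe sets (SD). Creb1, which encodes a factor activated by protein kinase A, was lowest at -0.35. The other receptor gene, Pth2r, and Pth lay under the floor on both arrays.

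Growth plate regulators and hypertrophic genes, which the loop acts on or is set by, gave medians on either side of 0. Of 14 regulators at or above the floor 7 were above and 7 below 0, and the median of 0.02 was -0.04 with probe sets averaged. Bmpr1a, a BMP receptor gene, was highest at 0.38, but the mean over its 6 probe sets was -0.04 ± 0.22 (SD over probe sets), and Bmp6, a ligand gene of hypertrophic cartilage, was lowest at -0.31. Of 7 hypertrophic genes, 2 were above and 5 below 0, and the median of -0.07 was 0.01 with probe sets averaged. Mmp13, the collagenase of late hypertrophic cartilage, was the pathway gene at least 1.5-fold lower, with 726 on the wild-type array and 426 on the mutant array and a log2 ratio of -0.77. Mef2c, a factor that drives hypertrophy, was highest at 0.33.

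**Figure D4:**
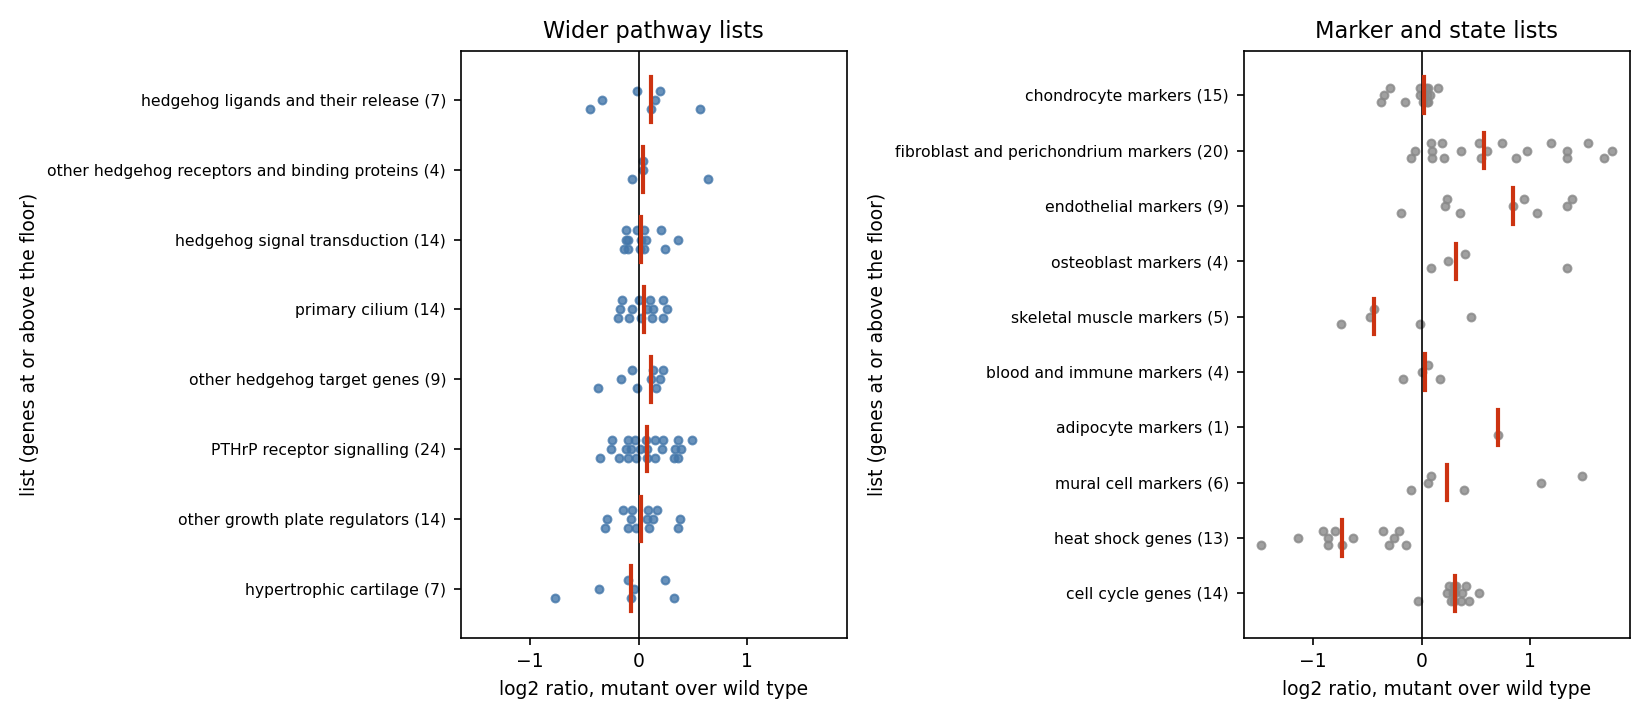
Log2 ratio of mutant over wild type for the genes at or above the floor on the 8 wider pathway lists (left) and on 10 marker and state lists (right), 1 point per gene, with the median of each list as a red bar and the number of genes in brackets. The pathway medians lie between -0.07 and 0.12, whereas the fibroblast median lies at 0.58, the heat shock median at -0.73 and the endothelial median at 0.84, or 0.35 over the 7 markers at or above the floor on the wild-type array.

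The arrays also differed in markers of cells that surround cartilage, among which the perichondrium is a known site of hedgehog response. Chondrocyte markers gave signals at or above the floor for 15 of 15 genes, as did 11329 of all 18193 genes. Their summed intensity was 177443 on the wild-type array and 177809 on the mutant array. The median ratio was 0.02, or -0.00 after median centring and -0.01 with probe sets averaged, with Col11a2 highest at 0.15 and Ucma lowest at -0.38. Of 20 fibroblast and perichondrium markers, 18 were above 0, against 44.8% of genes at or above the floor, and 6 were 2-fold higher or more, against 0.653%, with a summed intensity of 72015 on the wild-type array and 104881 on the mutant array, Thbs4 highest at 1.76 and Pdgfra lowest at -0.10. Of 9 endothelial markers at or above the floor, 8 were above 0, with Cdh5 highest at 1.39 and Egfl7 lowest at -0.19, and the summed intensity of the 12 measured was 972 and 1451. Their probe sets differed, with means of 0.75 ± 0.91 over the 2 of Cdh5 and 0.06 ± 0.26 over the 4 of Egfl7 (SD over probe sets). Robo4 and Emcn, and Scx on the fibroblast list, were under the floor on the wild-type array and were counted through the mutant array, where they are high. Of the 7 endothelial markers at or above the floor on the wild-type array 6 were above 0 and the median was 0.35, and for the 19 such fibroblast markers the numbers were 17 and 0.61. No marker on either list had an intensity of 0, but signals under the floor are also above 0, so this does not show detection. The part of these cells in the Gli1, Ptch1, Gli3 and Hhip values was not tested.

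The remaining lists were cell cycle genes (median 0.30, 13 of 14 above 0, Tpx2 at 0.53 and Cdc20 at -0.04), heat shock genes (median -0.73, 13 of 13 below 0, Hspa1b at -0.15 and Dnaja4 at -1.48) and mural cell markers (median 0.24, 5 of 6 above 0, Rgs5 at 1.48 and Tagln at -0.09). The 4 osteoblast markers at or above the floor were above 0, Col1a1 at 1.35 and Sp7 at 0.09, and Col1a1 also stands on the fibroblast list. Beside the counts of each list, 44.8% of all genes at or above the floor were above 0. Of 5 muscle markers, 4 were below 0, Des at 0.45 and Myod1 at -0.74, of 4 blood and immune markers 1 was, Csf1r at 0.17 and Cd68 at -0.17, and Fabp4 was the adipocyte marker above the floor at 0.70. Of the sex-linked genes, Xist had -0.63 and the Y-linked Eif2s3y 1.09, and the sex of the animals in each pool is unknown. The part of cell state or sex in the values of the loop was not tested.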

How the data were processed

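The authors deposited linear intensities for 45037 probe sets on both arrays. The submitters' processing notes name MAS5, Affymetrix's summary method, with no settings, and how the arrays were scaled to each other is not stated in the sources used here. Taken to log2, 100% of the deposited values fell on 5 decimals (tolerance 0.05 of the last decimal), so they may have been summarised as log2 values and not by MAS5, and what a low intensity or a small ratio means depends on that method. Per the labels' protocols, 6 µg of total RNA was labelled with biotin for each sample. Gene names came from GEO's annotation of the platform. Symbols were updated by Entrez identifier against a RefSeq table of GRCm38.p6, which held 34741 of the 34945 probe sets with 1 symbol and renamed none. Probe sets with several symbols (932) or unnamed here (9160) were left out. No coordinates were tied to probe sets.

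The log2 of the deposited values was used without further normalization, and the brightest probe set by mean log2 signal stood for a gene. The array medians were close, at 54.3 (wild type) and 55.1 (mutant). The share of ratios above 0 differed with signal, at 53.3% of probe sets of 1 gene under the floor and 45.3% of those at or above it. No test was run, since each genotype has 1 array, and the number of arrays limits the precision. The text names the 9 genes, the highest and lowest gene at or above the floor of each list, and pathway genes 1.5-fold apart. Scube1, Shh, Dhh, Mycn, Cdk6, Pth, Pth2r, Robo4, Emcn and Scx were named after their values were seen. The members and lists were chosen with earlier results of these data known. Alternatives were median centring, quantile normalization, a loess correction (span 0.3), an offset of 32, averaged probe sets, omitting probe sets named _s_at, _x_at or _a_at, which may match several transcripts, and other floors, among them a floor on the wild-type array, added after the data were seen. The scripts were tested on simulated data. Python 3.11.15, numpy 2.4.6, pandas 2.3.3, statsmodels 0.14.6 and matplotlib 3.10.9 were used.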

Additional observations from a re-analysis of the deposited data

How the results depend on the processing

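Across the alternatives, 270 of 280 recomputed values stayed within the SD of 0.26 between the brightest probe sets of a gene, or, for counts, within 1.5 times. That SD was wider than the distance of any pathway median from 0, so such medians could change sign and still count as within it. Smo also counted as within it, going from 0.21 to -0.04 on omitting probe sets of several transcripts. The offset of 32 lowered the number of genes at least 2-fold apart from 103 to 58 and the endothelial median from 0.84 to 0.56. That median was 0.35 over the 7 markers at or above the floor on the wild-type array, since Robo4 and Emcn passed the floor through the mutant array. Averaging probe sets gave 277 genes at least 1.5-fold apart, against 422, with fewer genes at or above the floor. The muscle median of -0.44 was -0.17 with probe sets averaged, -0.019 on omitting probe sets of several transcripts and 0.054 with no floor, and the adipocyte value of 0.70 was 0.28 and 0.017 under the last pair. With a floor at the 60th percentile, 1 of 3 members, in place of 2 of 4, had probe sets of 1 sign. Medians of 6 other lists, within 0.073 of 0, changed sign under 1 or more alternatives. The cause of these changes was not tested. Of the members, Pth1r changed sign under 2 alternatives and Smo under 1. The count of member probe sets above 0 was compared over scalings only after the data were seen. No member reached 1.5-fold under any alternative that used 1 value per gene at or above its floor. No paired analysis was possible because each genotype has 1 array. For Ihh and Hhip the signal, under the floor on both arrays, limits what can be said.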
